A study of Mus musculus with 12 samples.

Results

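The cytosolic ribosomal proteins build the small (40S) and large (60S) subunits of the ribosome in the cytoplasm. Their transcripts were followed in germinal vesicle (GV) stage mouse oocytes with and without an intact Dpagt1 gene, which encodes the enzyme that starts the lipid-linked sugar used for protein N-glycosylation. The members were chosen by gene symbol, as Rps or Rpl followed by a number with or without a letter suffix, together with Rpsa, Rplp0, Rplp1 and Rplp2. This gave 85 of the 24255 genes in the table, of which 31 belong to the 40S subunit, 43 to the 60S subunit and 3 to the P-stalk of the 60S subunit, and 8 are paralogues with restricted or alternative use (Rpl3l, Rpl7l1, Rpl10l, Rpl22l1, Rpl36al, Rpl39l, Rps4l and Rps27l). Fau and Gnb2l1, which also encode ribosomal proteins under other names, fell outside the choice and are given apart.

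The 12 libraries were made by Smart-seq2, which amplifies full-length cDNA from small amounts of RNA, each from 20 oocytes of C57BL/6 females at 3 weeks of age, collected 46 h after 5 IU of PMSG, a hormone that drives follicle growth. There were 3 libraries in each of 4 groups. WT was labelled wild type, MUT carried the ENU-induced D166G missense mutation of Dpagt1 in every cell, GcKO was Dpagt1F/F Gdf9CRE/+ and AmcKO was Dpagt1F/F Amhr2CRE/+. Gdf9-Cre acts in the oocyte from the primordial follicle onwards, so that GcKO removes the gene from the cells measured here, and Amhr2-Cre acts in granulosa cells, so that the oocyte of AmcKO keeps it. The WT labels name neither the floxed allele nor a Cre, and nothing in the labels says whether libraries of a group came from separate animals, so p-values measure the spread between these libraries only.

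A ribosome reads the mRNA on its small subunit and joins amino acids on its large subunit, and the P-stalk of the large subunit recruits the elongation factors that drive each step. A growing oocyte stores ribosomes and mRNA that the embryo will use, and transcription has largely stopped by the end of growth. In many cell types the mRNAs of ribosomal proteins begin with a C followed by a run of pyrimidines, the 5′ terminal oligopyrimidine (TOP) element, through which mTOR signalling controls their translation as a class.

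Pyrimidine runs near the annotated starts are shown first. They could lie before or after the start and did not have to begin with its first base, so they do not count TOP elements. For 64 members on chromosomes other than 18, RefSeq (GRCm38.p6) gave a start site, and the window of 15 bases before to 15 bases from the start was searched on the transcript's strand for its longest unbroken run of C and T. The median run was 6 bases in the members and 4 bases in all 32851 promoters, and 25 members (39.1%) had a run of 8 or more against 12% of all promoters. The first transcribed base was C in 31.2% of members and in 16.3% of all promoters. The windows below are those of members described in the results, written 5′ to 3′ with the longest run in capitals.
Rps6 (chr4:86857353-86857382, minus strand): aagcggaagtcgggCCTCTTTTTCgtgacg
Rpl35 (chr2:39005117-39005146, minus strand): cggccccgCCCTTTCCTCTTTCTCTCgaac
Rpl14 (chr9:120571502-120571531, plus strand): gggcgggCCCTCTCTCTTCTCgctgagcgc
Rpl19 (chr11:98026909-98026938, plus strand): tgggCTCTCCCCTTCgcagataatgggcgg
Rps4x (chrX:102189377-102189406, minus strand): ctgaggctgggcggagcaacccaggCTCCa
Rpl5 (chr5:107900513-107900542, plus strand): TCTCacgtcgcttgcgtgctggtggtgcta
Rplp0 (chr5:115559452-115559481, plus strand): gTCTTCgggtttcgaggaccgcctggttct
Rpl7a (chr2:26910792-26910821, plus strand): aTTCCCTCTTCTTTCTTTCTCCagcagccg
The windows of Rpl35, with a run of 18 bases, and Rpl5, with 4, are those of transcripts lower in MUT and GcKO (below the values of WT in every library). Rpl7a, with the longest run of 21 bases, was among the 5 tested members with the lowest levels. The marked runs of Rpl5, Rplp0 and Rpl19 lay wholly before the annotated start. The RefSeq start of Rpl35 was 493 bases from that of its GENCODE transcript. Of the members with a window, 6 of 11 that were called lower in MUT and 16 of 41 that were not called had a run of 8 or more. These matches describe letters in a window around an annotated start, not the start used in oocytes.

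All levels are FPKM, fragment counts scaled to the length of the transcript and to the size of the library, to allow genes of different length to be compared. How well that holds for very short genes was not tested. Among the most abundant members, the coding sequence of Rpl41 has 75 nt and those of Rpl39 and Rpl39l have 153 nt. The depth of the libraries is unknown, since the table holds no counts. The summed FPKM of all genes differed between the groups, with a range of 1167362 to 1226005 over the WT libraries, of 589617 to 611597 over MUT, of 482314 to 684212 over GcKO and of 883256 to 1107925 over AmcKO, while more genes were above 0 in MUT (11208 to 11467) than in WT (9359 to 9622). A direction therefore depends on whether FPKM are taken as deposited or scaled to the same sum, and both are given for the members. All 12 oocyte markers checked (Gdf9, Bmp15 and others) were above 0 in each group, and the summed level of 13 granulosa cell markers ranged over 17.6 to 23.1 FPKM in WT and 17.0 to 31.1 in MUT. In GcKO it was 14.9 to 29.1 and in AmcKO 11.6 to 22.7 FPKM. Cyp19a1 was the largest part of this sum in every library. It had 17.1, 20.1 and 15.1 FPKM in WT, 8.88, 9.49 and 13.4 in MUT, 6.70, 10.5 and 20.9 in GcKO and 10.9, 19.2 and 9.97 in AmcKO. The sum therefore does not show how the other granulosa cell markers stood. Inha, Gja1 and Hsd17b1, markers of granulosa cells, were listed at 0 in all WT libraries and reached 5.45, 4.26 and 3.09 FPKM in MUT. They reached 1.08, 1.69 and 0.957 FPKM in GcKO and 0.797, 0.285 and 0 in AmcKO. Amh, Amhr2, Foxl2 and Ptx3 were at 0 in all 12 libraries. The part of granulosa cells in the values below was not tested, and in such bulk samples fewer cells of a type and less RNA per cell cannot be told apart. Dpagt1 itself was listed at 0 in all WT and AmcKO libraries, at 0.878, 0.408 and 0.985 FPKM in MUT and at 0, 0.366 and 0 in GcKO, so that its FPKM do not check the genotypes. MUT and GcKO libraries are numbered 1 to 3 in the labels and WT and AmcKO libraries 4 to 6. Should these numbers mark a batch, it cannot be told apart from the genotype in MUT or GcKO against WT.

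Mean levels of the tested members ran from 0.308 to 3394 FPKM. The highest mean over the 12 libraries was that of Rpl41, a very short basic peptide of the 60S subunit, at 3394 FPKM. It was followed by Rpl36al (2512), Rpl39 (1600), Rpl32 (1205) and Rpl39l (819), so that 2 of the 5 leading members are paralogues. The leading 5 members of each library made up 60.9% to 64.9% of the summed level of all members. The lowest tested members were Rpl24 (mean 0.308 FPKM), Rpl36 (0.427), Rpl3 (0.892), Rpl11 (0.956) and Rpl7a (1.04), each of them a core protein of the 60S subunit. The median member lay between 20.2 and 36.0 FPKM in the 12 libraries. The heat map of the members named here shows Rpl41 and Rpl36al on top in every library and scattered zeros in the low rows, and Rplp1 took the place of Rpl39l among the leading 5 in all 6 MUT and GcKO libraries.

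**Figure D1:**
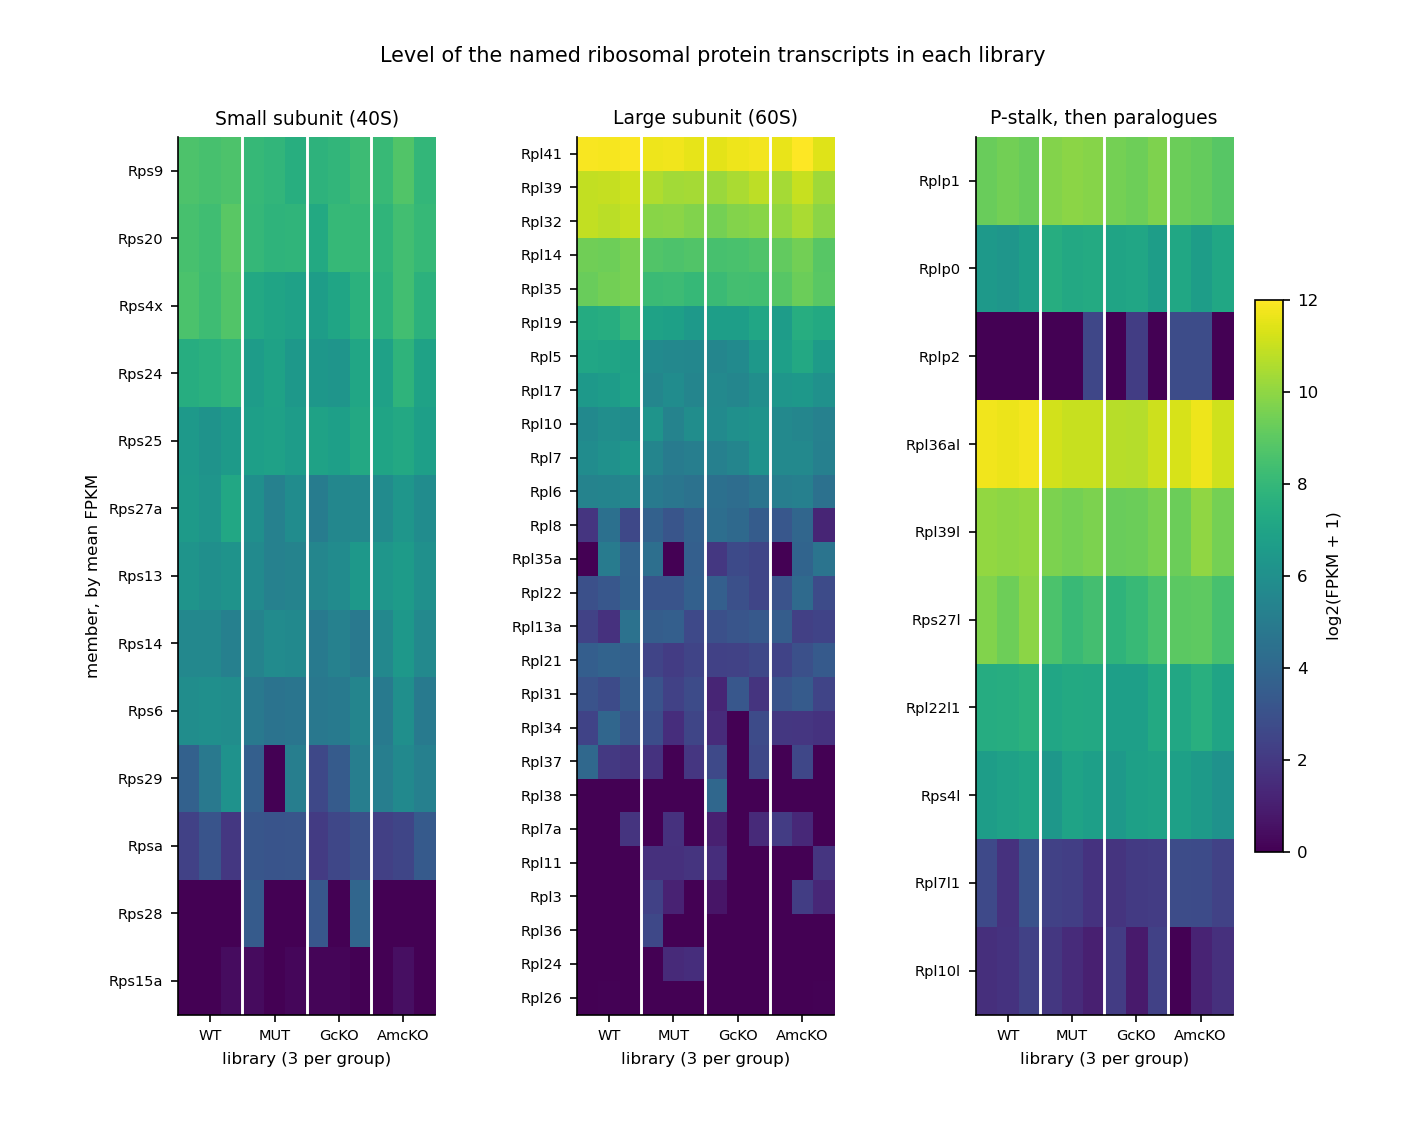
Heat map of log2(FPKM + 1) for the 49 measured ribosomal protein transcripts named in the text (rows, in 3 panels) in the 12 libraries (columns, by group and library number), with the colour scale in log2 units. Rpl41, Rpl36al and Rpl39 are bright in every library, and 14 rows hold at least 1 library at 0.

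Transcripts of 8 members, Rpl12, Rpl28, Rpl36a, Rpl3l, Rpl9, Rps12, Rps21 and Rps27, were listed at 0 in all 12 libraries and count as not measured. Of all genes in the table, 38.4% were at 0 throughout. Apart from Rpl3l, a muscle protein, these belong to the standard ribosome, so that a 0 here can be a failed estimate and says nothing about presence. Another 16 members were at 0 in 1 to 11 libraries, and 61 (71.8%) were above 0 in all 12. Rpl35a of the 60S subunit was at 0, 31.3 and 13.1 FPKM in WT 4, 5 and 6, at 19.6, 0 and 11.4 in MUT 1, 2 and 3, at 2.86, 5.54 and 4.64 in GcKO 1, 2 and 3 and at 0, 13.7 and 23.5 in AmcKO 4, 5 and 6. Zeros and levels above 10 thus occurred within one group. The same held over the 12 libraries for Rpl34, Rpl37, Rpl38, Rps28 and Rps29, all above 10 FPKM in at least 1 library. Rpl26 (at most 0.0379 FPKM) and Rps15a (at most 0.386) stayed below 1 FPKM everywhere and were not tested, which left 75 tested members.

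Most ribosomal protein genes have processed copies elsewhere in the genome, and counting could split reads between them. In the GENCODE M21 transcripts, 79 of 85 members had at least 1 other gene matching at least 50% of their coding sequence at 95% identity or more, with a median of 5 copies and a maximum of 58 for Rpl21. Rpl3l, Rpl8, Rpl39l, Rps4l and Rps27l were among those without one. Of the members listed at 0 throughout, 7 of 8 had a copy, and of the 20 members with a mean of at least 100 FPKM, 17 did. Rows of the table for 14 pseudogene copies were above 0, and 8 of these were higher than their member. Rpl37rt, a copy of Rpl37 at 99.7% identity, had a mean of 6279 FPKM against 3.46 for Rpl37, a zinc-binding protein of the 60S subunit. Gm15772, which the table places at the locus of Rpl26, had 163 FPKM against 0.0186 for Rpl26, and Rplp2-ps1 had 837 against 1.69 for Rplp2. Rps15a-ps6 reached 53.7 against 0.118 for Rps15a and Rpl31-ps12 reached 182 against 6.26 for Rpl31. The level of these members alone is therefore uncertain, and how much of each copy's level came from its member was not tested.

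Values of Rpl37rt were 9239, 9186 and 10103 FPKM in WT 4, 5 and 6, 4329, 4187 and 3902 in MUT 1, 2 and 3, 3895, 4400 and 5020 in GcKO 1, 2 and 3 and 6386, 8926 and 5773 in AmcKO 4, 5 and 6. The MUT and GcKO libraries lay below those of WT with no overlap, and so did AmcKO. Its log2 fold change was -1.20 in MUT (standard error (SE) 0.17, adjusted p = 0.000373) and -1.11 in GcKO (SE 0.17, adjusted p = 0.000637), on the log2(FPKM + 1) scale used for every test. It was -0.46 in AmcKO (SE 0.17, adjusted p = 0.229), which did not pass. Rpl14-ps1 (-1.22 in MUT, adjusted p = 0.000175) and Rplp2-ps1 (-0.90, adjusted p = 0.00104) were also lower. When each pseudogene copy was added to its member, 24 members were called lower and 3 higher in MUT, and 27 lower and 1 higher in GcKO, out of 77. Matching genes annotated as protein-coding were not added. The shares of all genes called in that table were 11.3% lower and 9.48% higher in MUT and 11.5% and 8.72% in GcKO. With these libraries also scaled to the same FPKM sum, 1 member was lower and 29 higher in MUT, and 2 and 29 in GcKO. The shares of all genes were then 2.23% lower and 41.4% higher in MUT and 2.13% and 42.5% in GcKO.

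The summed level of the members fell as FPKM and rose as a share of the library in both Dpagt1-deficient oocytes. It was 18920, 18250 and 20794 FPKM in WT 4, 5 and 6, 14159, 13392 and 12729 in MUT 1, 2 and 3, 11198, 12345 and 14514 in GcKO 1, 2 and 3 and 14103, 18632 and 12766 in AmcKO 4, 5 and 6. Every MUT and GcKO library was below every WT library, and AmcKO 5 reached into the WT range. The same sums made up 1.54% to 1.70% of all FPKM in WT and 1.45% to 1.68% in AmcKO, but 2.16% to 2.32% in MUT and 2.02% to 2.32% in GcKO. As a share, MUT and GcKO were above WT with no overlap, since the summed FPKM of all genes fell further than that of the members. This holds for the sums only, as the median tested gene had a log2 fold change of 0.12 in both groups.

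**Figure D2:**
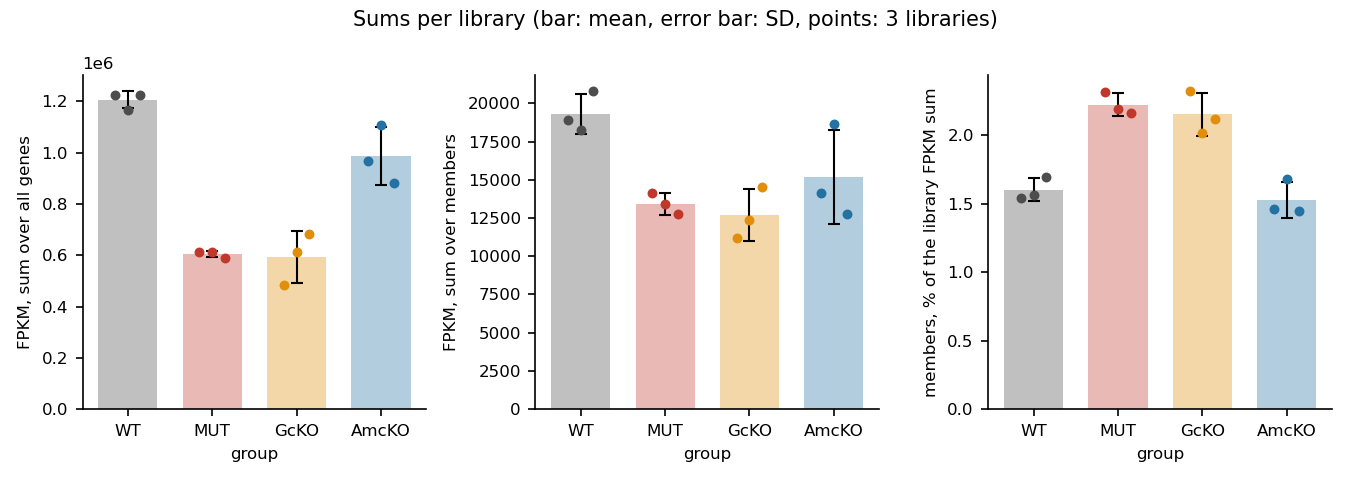
Bars give the group mean and error bars the SD of 3 libraries, with 1 point per library, for the summed FPKM of all genes, the summed FPKM of the ribosomal protein transcripts and the percent of the first made up by the second. The member sum is lower in MUT (12729 to 14159) and GcKO (11198 to 14514) than in WT (18250 to 20794), while its percent is higher (2.16 to 2.32 and 2.02 to 2.32 against 1.54 to 1.70).

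The D166G mutation was compared with WT to ask which transcripts of the oocyte change when the enzyme is impaired in the whole body. Taken as deposited, 20 of 75 tested members were called lower in MUT and 3 higher (adjusted p below 0.05), against 11.3% of all 11233 tested genes called lower and 9.46% called higher. Members had a median log2 fold change of -0.28 and all genes one of 0.12, and with the libraries scaled to the same FPKM sum both medians were positive, at 0.56 and 0.72. After correction for transcript length the members' median also turned, to 0.09 against 0.14 for all genes. The 3 MUT libraries did not overlap WT for 32 members (42.7%), among them all 23 that were called, and for 37.1% of all tested genes. By group, 8 of 27 members of the 40S subunit were lower and none higher (median -0.51), and 10 of 38 of the 60S subunit lower and 1 higher (-0.12). Of 7 tested paralogues 2 were lower (-0.39), and 2 of the 3 P-stalk transcripts were higher (0.85). That last median is the value of Rplp2, which was listed at 0 in WT and in 2 of the 3 MUT libraries, and with its copy added Rplp2 was called lower (-0.90, adjusted p = 0.00108). At the same FPKM sum the medians of all 4 groups were positive, from 0.43 for the paralogues to 1.50 for the P-stalk. The count of lower members was 12 without WT 6, 13 without MUT 2 and 11 without MUT 3, and 11 members were called lower with each library left out in turn. Of all tested genes, 1048 were lower without WT 6, 962 without MUT 2 and 926 without MUT 3.

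Read against genes of the same level, the members were not called lower more often than others among abundant transcripts. Of all tested genes with a mean of 100 to under 1000 FPKM, 63.7% were called lower in MUT, and 8 of 16 members in that range were. From 1000 FPKM upwards, 92.0% of 138 genes were lower and 2 of 4 members (Rpl36al and Rpl32, not Rpl39 or Rpl41). Between 10 and 100 FPKM, the share was 20.2% of all genes and 9 of 33 members. Below 10 FPKM, 1.97% of genes were lower and 8.76% higher, with 1 of 22 members in each direction. The median change of members from 1000 FPKM upwards was -0.62 against -1.19 for all genes at that level. No test of these differences was made.

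Among 40S proteins, Rps4x, encoded on the X chromosome (chrX:102184941-102189394 in GRCm38, as all gene positions here), had the largest called fall in MUT. It had 392, 304 and 421 FPKM in WT 4, 5 and 6, 148, 126 and 116 in MUT 1, 2 and 3, 101, 130 and 204 in GcKO 1, 2 and 3 and 206, 330 and 212 in AmcKO 4, 5 and 6. All MUT and GcKO libraries lay below WT, and AmcKO lay between them with 1 value inside the WT range. The log2 fold change was -1.50 in MUT (SE 0.25, adjusted p = 0.000993), or 2.84-fold lower, and Rps4x was the only member called lower in MUT with the libraries at the same FPKM sum (-0.51).

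Rps6, the subunit protein that S6 kinase phosphorylates downstream of mTOR, had 58.3, 61.2 and 57.7 FPKM in WT, 27.5, 22.7 and 24.5 in MUT, 27.4, 29.4 and 43.7 in GcKO and 29.4, 62.5 and 29.0 in AmcKO, in the same library order. The MUT libraries were all below 28 and WT above 57, whereas AmcKO had 1 library above all of WT and 2 far below it. The change was -1.22 in MUT (SE 0.27, adjusted p = 0.00569) and -0.83 in GcKO (SE 0.27, adjusted p = 0.0417), and the GcKO call was lost without any 1 of 5 of the 6 libraries compared (adjusted p up to 0.167) and turned to 0.19 at the same FPKM sum. Rps27a, made as a fusion with ubiquitin, was lower in MUT (-0.98, SE 0.27, adjusted p = 0.0204) and GcKO (-1.28, SE 0.27, adjusted p = 0.00434). In MUT it was not called without WT 4, WT 6, MUT 2 or MUT 3 (adjusted p up to 0.106). Rps24, Rps9 and Rps20 of the 40S subunit were also lower in both, with changes from -1.03 to -0.70 in MUT and from -1.10 to -0.64 in GcKO. In MUT, Rps24 was not called without WT 5, WT 6, MUT 1 or MUT 3, Rps9 without WT 4, WT 6, MUT 2 or MUT 3 and Rps20 without WT 4, WT 6 or any MUT library (adjusted p up to 0.158). In GcKO, Rps24 was not called without WT 6, GcKO 1 or GcKO 2, Rps9 without any WT library, GcKO 1 or GcKO 2 and Rps20 without WT 4, WT 6 or GcKO 1 (adjusted p up to 0.177). Rps9 and Rps20 turned positive in both at the same FPKM sum (0.21 and 0.29 in MUT). There Rps24 was at -0.04 in MUT and -0.07 in GcKO, Rps6 at -0.24 in MUT and Rps27a at -0.25 in GcKO, with no call.

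Rps25, which internal ribosome entry sites use, went the other way. It had 89.7, 71.7 and 93.0 FPKM in WT, 108, 117 and 99.4 in MUT, 119, 108 and 149 in GcKO and 128, 148 and 107 in AmcKO. All libraries of the 3 other groups were above WT. Only GcKO passed (0.55, SE 0.18, adjusted p = 0.0397), where Rps25 was the one member called higher, and the call was lost without WT 4, WT 5, GcKO 1 or GcKO 3 (adjusted p up to 0.124). Rpsa, the laminin receptor protein of the 40S head, had 3.92, 7.76 and 2.85 FPKM in WT and 8.13, 7.55 and 8.11 in MUT, which overlapped (0.70, adjusted p = 0.201).

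In the 60S subunit, Rpl5 and Rpl11 bind the 5S rRNA and, outside the ribosome, the p53 regulator Mdm2. Rpl5 (chr5:107900502-107909005) had 136, 128 and 119 FPKM in WT, 53.0, 48.0 and 46 in MUT, 45.1, 52.9 and 82.1 in GcKO and 108, 151 and 95.1 in AmcKO. MUT and GcKO were below WT with no overlap, while AmcKO spread on both sides of it. The change was -1.36 in MUT (SE 0.22, adjusted p = 0.000815), -1.12 in GcKO (SE 0.22, adjusted p = 0.00286) and -0.14 in AmcKO (adjusted p = 0.798). At the same FPKM sum Rpl5 was at -0.38 in MUT (adjusted p = 0.0698) and -0.09 in GcKO (adjusted p = 0.659), and was called in neither. Rpl11 was listed at 0 in all 3 WT libraries, at 2.22, 2.16 and 2.55 FPKM in MUT, at 1.96, 0 and 0 in GcKO and at 0, 0 and 2.60 in AmcKO. It was called higher in MUT (adjusted p = 0.0259), with no fold given against a group at 0. The call was lost without any 1 of the 6 libraries (adjusted p up to 0.0970). By an estimate from the lowest values in each library, 1 fragment of a transcript of 600 nt was worth 3.84 to 4.46 FPKM in WT and 1.69 to 2.05 in MUT, so levels of this size lie at that of single fragments.

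Rpl35 (chr2:39001580-39005624), which sits at the exit of the peptide tunnel, had 618, 706 and 761 FPKM in WT, 287, 303 and 263 in MUT, 293, 336 and 332 in GcKO and 476, 635 and 492 in AmcKO. MUT and GcKO lay well below WT, and AmcKO held 1 value inside its range. Its change had the smallest adjusted p of all members in MUT (-1.28, SE 0.15, adjusted p = 0.000124) and was -1.11 in GcKO (SE 0.15, adjusted p = 0.000247). At the same FPKM sum Rpl35 was at -0.29 in MUT (adjusted p = 0.0665) and -0.08 in GcKO (adjusted p = 0.631), and was called in neither. Rpl32 had 1937, 1709 and 2061 FPKM in WT, 947, 968 and 852 in MUT, 720, 881 and 920 in GcKO and 1052, 1446 and 968 in AmcKO. The 9 libraries of the other groups were all below WT, with changes of -1.04 in MUT (adjusted p = 0.000819), -1.18 in GcKO (adjusted p = 0.000356) and -0.74 in AmcKO (adjusted p = 0.0861, not passing). At the same FPKM sum these values for Rpl32 came close to 0, at -0.04 in MUT and -0.14 in GcKO.

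The most abundant member moved less. Rpl41 had 3719, 3651 and 3942 FPKM in WT, 3327, 3426 and 2994 in MUT, 2922, 3366 and 3533 in GcKO and 3090, 4035 and 2722 in AmcKO. The MUT and GcKO libraries were below WT but near it (-0.22, adjusted p = 0.363, and -0.21, adjusted p = 0.383), and at the same FPKM sum Rpl41 was called higher in both (0.78 and 0.83). Rpl10, which joins the 60S subunit late in its assembly, had 50.1, 59.9 and 56.6 FPKM in WT and 73.8, 40.3 and 57.4 in MUT, which overlapped. Rpl13a had 4.10, 2.32 and 21.7 FPKM in WT and overlapped in every group.

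Rpl19 was the reference transcript of the study's qRT-PCR. It had 165, 179 and 250 FPKM in WT, 120, 112 and 87.4 in MUT, 103, 103 and 136 in GcKO and 97.2, 180 and 154 in AmcKO. Both deficient groups stayed below the lowest WT library, and the fall in GcKO was -0.78 (SE 0.23, adjusted p = 0.0305) beside -0.88 in MUT (SE 0.23, adjusted p = 0.0170). Of the single libraries, leaving out WT 5, WT 6, GcKO 1 or GcKO 2 ended the GcKO call (adjusted p up to 0.131), and WT 6, MUT 2 or MUT 3 the MUT call (adjusted p up to 0.0946). The direction turned when libraries were scaled to the same sum (0.25 and 0.11). Rpl21 (-1.36 in MUT and -1.28 in GcKO), which has the most copies, was lower in both, as were Rpl14 (-0.73 and -0.86), Rpl17 (-1.06 and -0.98) and Rpl6 (-0.70 and -0.99). At the same sum Rpl21 was at -0.49 and -0.38 and Rpl17 at -0.08 and 0.05, with no call. The MUT call of Rpl6 was lost without WT 5, WT 6, MUT 2 or MUT 3 (adjusted p up to 0.0949), and its direction turned at the same sum (0.27 and 0.02), as did that of Rpl14 (0.27 and 0.18). Rpl7 passed in MUT (-0.89, adjusted p = 0.0182) and not in GcKO (-0.48, adjusted p = 0.175), a difference that was not called between the 2 groups, and its MUT call was lost without WT 5, WT 6, MUT 2 or MUT 3 (adjusted p up to 0.0841).

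Of the P-stalk transcripts, Rplp0 and Rplp1 were called higher in MUT as deposited and under each of the 3 other scalings. Rplp0 (chr5:115559467-115563727), the base of the stalk, had 85.7, 79.1 and 105 FPKM in WT, 175, 153 and 159 in MUT, 126, 135 and 103 in GcKO and 141, 101 and 139 in AmcKO. All MUT libraries were above WT, and 1 library each of GcKO and AmcKO fell into the WT range. The rise in MUT was 0.85 (SE 0.18, adjusted p = 0.00403), or 1.81-fold, and no single library left out ended the call, while GcKO (0.43, adjusted p = 0.102) and AmcKO (0.49, adjusted p = 0.216) did not pass.

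Rplp1, a flexible arm of the stalk (chr9:61913284-61914542), had 605, 707 and 620 FPKM in WT, 875, 965 and 891 in MUT, 722, 655 and 833 in GcKO and 623, 575 and 476 in AmcKO. MUT stood above all other groups. The rise was 0.50 against WT (SE 0.15, adjusted p = 0.0266) and 0.71 against AmcKO (adjusted p = 0.0106), and the first was lost without WT 4, WT 6 or any MUT library (adjusted p up to 0.0868). Scaled to the same sum, MUT was 1.84 higher for Rplp0 and 1.50 for Rplp1. Rplp2, the partner of Rplp1, was at 0 in all WT libraries and in 5 of the other 9, at 3.54 to 5.98 FPKM in the rest, and was not called. Its row Rplp2-ps1 was lower in MUT, as given above.

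**Figure D3:**
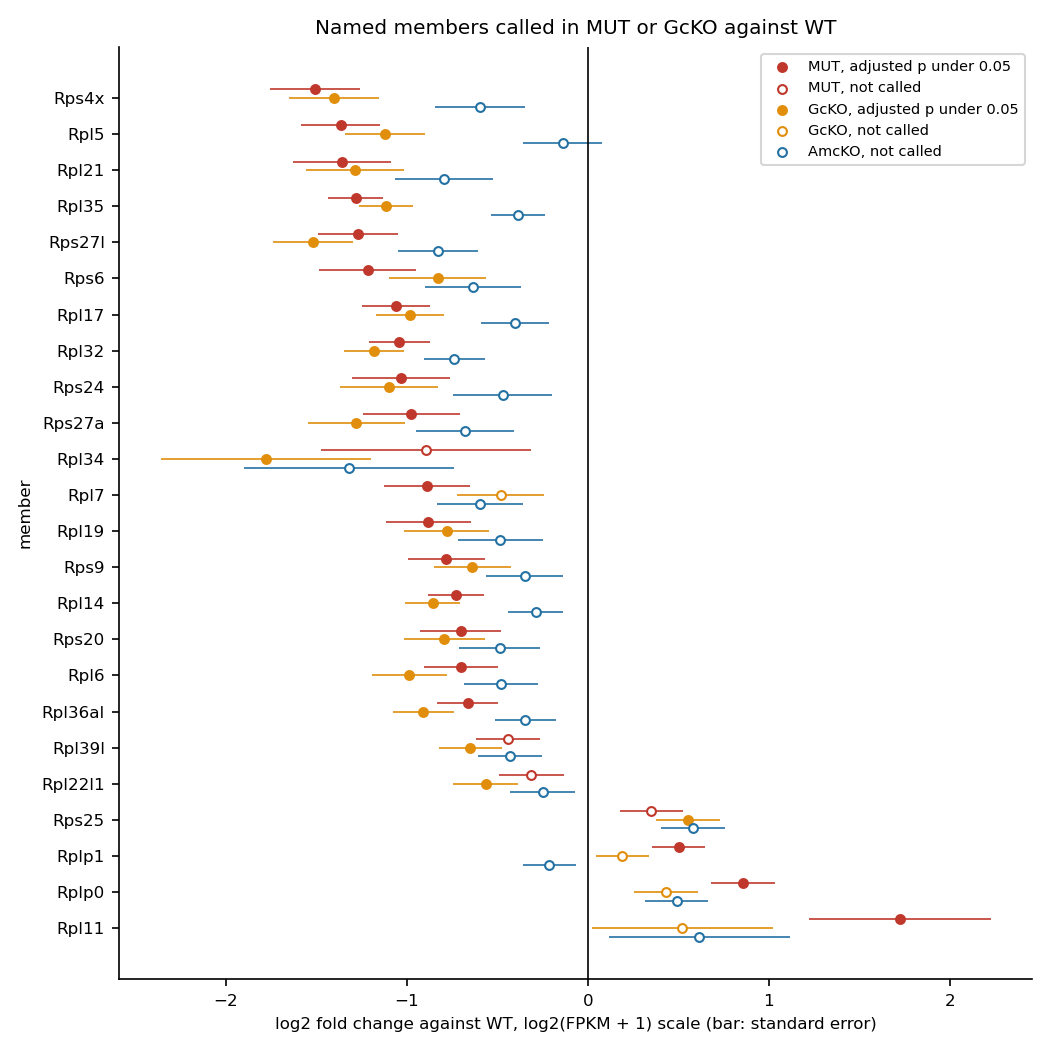
Points give the log2 fold change against WT on the log2(FPKM + 1) scale, and bars the SE, for the 24 members named in the text and called in MUT or GcKO (filled, adjusted p below 0.05; open, not called), with AmcKO beside them. Rps4x and Rpl5 lie far to the left in MUT (-1.50 and -1.36), Rplp0 and Rplp1 to the right (0.85 and 0.50), and the value of Rpl11 is set by the added 1 because WT is listed at 0; scaled to the same FPKM sum, many of the lower values turn positive, such as Rpl19 (0.11 in MUT).

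Several ribosomal proteins have another gene for a closely related protein, and for 3 of the 8 pairs examined (Rps27 with Rps27l, Rpl36a with Rpl36al and Rpl22 with Rpl22l1) the level listed was higher for the paralogue or for it alone. Rps27l, a p53-inducible relative of Rps27, had 834, 655 and 969 FPKM in WT, 392, 280 and 342 in MUT, 224, 271 and 370 in GcKO and 500, 527 and 358 in AmcKO, while Rps27 was listed at 0 throughout. All 9 other libraries were below WT, with changes of -1.27 in MUT (SE 0.22, adjusted p = 0.00130) and -1.52 in GcKO (SE 0.22, adjusted p = 0.000409). Rps27l was called lower in GcKO also at the same FPKM sum (-0.48).

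Rpl36al (chr12:69182741-69184083), which encodes nearly the same protein as Rpl36a, had 3423, 3234 and 3506 FPKM in WT, 2347, 2051 and 2030 in MUT, 1701, 1603 and 2150 in GcKO and 2505, 3342 and 2256 in AmcKO, and Rpl36a was listed at 0 throughout. MUT and GcKO lay below WT and AmcKO spanned the gap. The change was -0.66 in MUT (adjusted p = 0.0132) and -0.91 in GcKO (adjusted p = 0.00198), but 0.33 in MUT at the same FPKM sum, which was called higher. The MUT call was lost without MUT 2 or MUT 3 (adjusted p = 0.0573 and 0.0613).

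Both forms of Rpl39, at the inner wall of the peptide tunnel, were abundant. Rpl39 had 1925, 1976 and 2239 FPKM in WT and 1498, 1276 and 1338 in MUT (-0.58, adjusted p = 0.0534), with -0.50 in GcKO (adjusted p = 0.0895). Rpl39l, best known from male germ cells, had 1069, 987 and 1079 in WT, 798, 721 and 790 in MUT, 613, 624 and 769 in GcKO and 629, 1034 and 714 in AmcKO. For both genes the MUT libraries were below all WT libraries. Rpl39l passed in GcKO (-0.65, SE 0.17, adjusted p = 0.0175), a call lost without WT 4, WT 6, GcKO 1 or GcKO 2 (adjusted p up to 0.0665) and turned to 0.39 at the same FPKM sum.

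Rpl22l1 had 170, 175 and 202 FPKM in WT against 6.64, 8.45 and 12.9 for Rpl22, which binds RNA also outside the ribosome. Rpl22l1 changed by -0.56 in GcKO (SE 0.18, adjusted p = 0.0398) and by -0.31 in MUT (adjusted p = 0.243). The GcKO call was lost without any WT library, GcKO 1 or GcKO 2 (adjusted p up to 0.131) and turned at the same FPKM sum (0.47). Rps4l, another form of Rps4x, had 103, 116 and 130 FPKM in WT, 81.0, 122 and 110 in MUT, 89.1, 113 and 121 in GcKO and 113, 90.6 and 69.0 in AmcKO. Its groups overlapped (-0.17 in MUT, adjusted p = 0.614), unlike those of Rps4x. Rpl7l1 (2.27 to 7.13 FPKM) and Rpl10l (0 to 4.03) stayed below Rpl7 and Rpl10 in all 12 libraries, and Rpl3, at 0 in all WT libraries and at most 3.94 FPKM elsewhere, had no measured partner in Rpl3l.

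**Figure D4:**
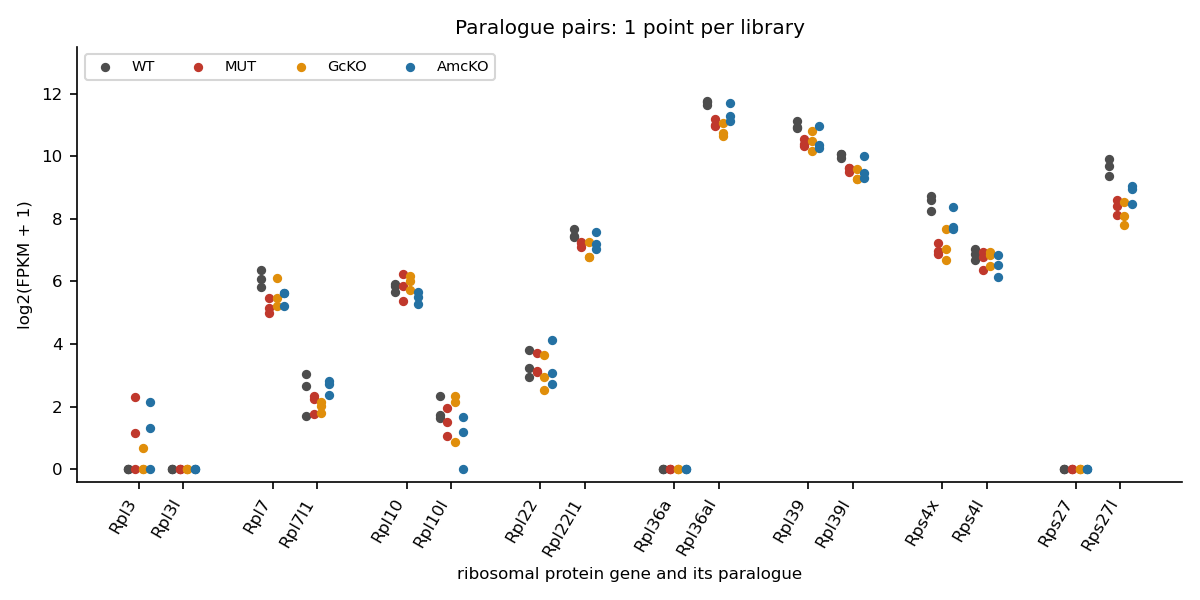
The log2(FPKM + 1) of each ribosomal protein gene is plotted beside that of its paralogue, 1 point per library, coloured by group. Rps27l and Rpl36al stand high beside partners listed at 0, Rpl39 and Rpl39l are both high, and Rpl22l1 (109 to 202 FPKM) lies above Rpl22 (4.78 to 16.5) in every library.

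The oocyte-specific knockout was compared with WT to ask the same within the oocyte alone. In GcKO, 23 of 75 members were called lower and 1 higher, against 11.4% and 8.71% of all tested genes. The members' median was -0.36 and that of all genes 0.12, and at the same FPKM sum both were positive, at 0.54 and 0.74. With the length correction the members' median in GcKO was -0.0080 against 0.14 for all genes. By group, 9 of 27 members of the 40S subunit were lower and 1 higher (median -0.42), 10 of 38 of the 60S subunit (-0.28) and 4 of 7 paralogues (-0.56) were lower, and no P-stalk transcript was called (0.43), while at the same FPKM sum these medians were 0.61, 0.50, 0.39 and 1.23. GcKO and MUT are set against the same 3 WT libraries, and each comparison's values have been given side by side for that reason. In the range of 100 to under 1000 FPKM, 66.9% of all genes and 10 of 16 members were lower in GcKO. The count of lower members was 14 without WT 6 and 15 without GcKO 1, and 14 members were called lower with each library left out in turn. Of all tested genes, 1110 were lower without WT 6 and 941 without GcKO 1. Rpl34 had 4.32, 14.6 and 7.99 FPKM in WT and 1.78, 0 and 5.67 in GcKO, which overlapped, so it was the one member called lower here without separate ranges (-1.78, SE 0.58, adjusted p = 0.0447), and the call was lost without any WT library, GcKO 1 or GcKO 2 (adjusted p up to 0.197).

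Between GcKO and MUT themselves, limma called no member lower or higher, with 0.134% and 0.0712% of all genes called in each direction and 5 members (6.67%) against 6.60% of all genes at an unadjusted p below 0.05. The median of the members was -0.12, and -0.02 without GcKO 1, -0.04 without MUT 1 and -0.21 without GcKO 3.

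In AmcKO, where the oocyte keeps Dpagt1, limma called none of the 75 members against WT, beside 0.116% of all genes lower and 0.0979% higher. At an unadjusted p below 0.05 there were 21 members (28.0%) against 15.6% of all genes, and 12 members (16.0%) did not overlap WT against 17.8% of all genes. The median of the members was -0.16 against 0.03 for all genes, and 0.06 against 0.21 at the same FPKM sum. Rpl32 and Rps27l had adjusted p of 0.0861 and 0.131. AmcKO 5 held more of most members than AmcKO 4 and 6, as in Rps6 (62.5 against 29.4 and 29.0 FPKM). Without AmcKO 5, 2 members and 48 of all 11233 genes were called lower, and the members' median was -0.34. Without AmcKO 6 the median was -0.10.

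MUT and GcKO were also set against AmcKO, where WT libraries enter only the estimate of the spread. Against AmcKO, 5 members were called lower and 1 higher in MUT, with 5.07% and 1.42% of all genes, and 7 lower and none higher in GcKO, with 4.79% and 0.668%. Rpl5 was lower in both, by -1.23 in MUT (adjusted p = 0.00514) and -0.98 in GcKO (adjusted p = 0.0182). Rpl35 was lower by -0.90 and -0.73 (adjusted p = 0.00302 and 0.0120), and Rps4x passed in MUT (-0.91, adjusted p = 0.0441). When single libraries were left out, the calls of Rpl5 and Rpl35 in MUT and of Rpl35 in GcKO held, while Rps4x was not called in any of those 6 fits (adjusted p from 0.0716 to 0.203). The call of Rpl5 in GcKO was lost without GcKO 1, GcKO 2, AmcKO 4 or AmcKO 5 (adjusted p up to 0.0954). At the same FPKM sum, 2 of the 6 members called in MUT kept their call, and 0 of the 7 in GcKO. Rpl35 in MUT was then at -0.20 (adjusted p = 0.238), and Rpl5 in GcKO at -0.25 (adjusted p = 0.262). With no WT library in the fit, Rpl5, Rpl35 and Rplp1 were still called in MUT, Rps4x was not (adjusted p = 0.0804), and no member was called in GcKO (adjusted p = 0.187 for Rpl5 and 0.143 for Rpl35).

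The plot of all tested members under 4 scalings shows how far these directions rest on the unit. With FPKM as deposited or with median-of-ratios scaling, 20 and 21 members were lower in MUT and 3 and 3 higher. The second hardly moved the deposited values (median of all genes 0.121 and 0.118, of members -0.279 and -0.282), so it is no separate support. Quantile normalization gave 8 lower and 9 higher in MUT and 10 and 6 in GcKO. Of all 11233 tested genes, 720 were then lower and 753 higher in MUT, and 665 and 691 in GcKO. The same FPKM sum gave 1 lower and 28 higher in MUT and 2 and 28 in GcKO. At that sum 250 of the 11233 genes were lower and 4646 higher in MUT, and 240 and 4771 in GcKO. The median of the members lay below that of all genes in each of these, by 0.40, 0.40, 0.07 and 0.16 in MUT, in the order deposited, median-of-ratios, quantile and same sum. Rplp0 and Rplp1 were called higher and Rps4x lower in MUT under all 4, and Rps27l lower and Rps25 higher in GcKO.

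**Figure D5:**
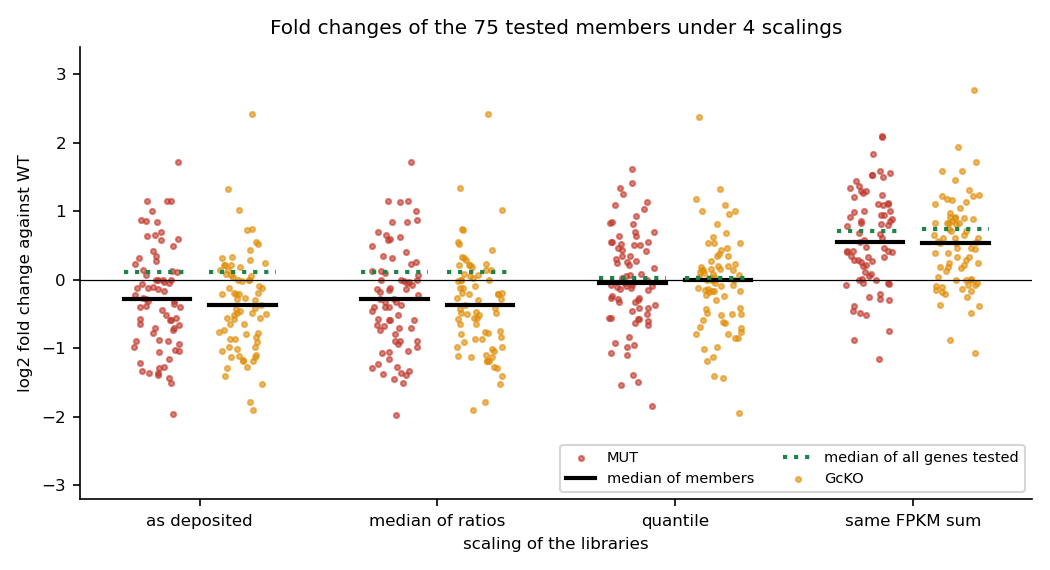
Log2 fold changes of the 75 tested members in MUT and GcKO against WT, 1 point per member, under 4 scalings of the libraries, with lines for the median of the members and of all tested genes. In MUT the members' median moves from -0.28 as deposited to 0.56 at the same FPKM sum, and that of all genes from 0.12 to 0.72.

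Other genes of the translation machinery were listed apart. For comparison, 11.3% of all tested genes were called lower and 9.46% higher in MUT, and 11.4% and 8.71% in GcKO. Of the proteins outside the naming rule, Fau, which is processed to a 40S protein, was lower in MUT (-0.90, adjusted p = 0.0304) and GcKO (-0.97, adjusted p = 0.0216) as deposited but near 0 at the same FPKM sum (0.09 and 0.06). Gnb2l1 stayed below 3 FPKM. Of 14 elongation factors and other transcripts of the TOP class, 4 were lower and 1 higher in MUT, and 3 and 1 in GcKO (medians -0.48 and -0.44, but 0.30 and 0.46 at the same FPKM sum). Naca, the nascent chain-associated protein, fell by 1.62 and 1.48 on the log2 scale (adjusted p = 0.00915 and 0.0151), with -1.52 in AmcKO (adjusted p = 0.115), Npm1, a nucleolar chaperone, by 1.01 and 1.23, while Eif4b rose by 1.20 and 1.17 (adjusted p = 0.0167 and 0.0187). Mitochondrial ribosomal proteins, made for a separate ribosome, had 21 lower and 3 higher of 77 in MUT, and 24 and 2 in GcKO (medians -0.26 and -0.41, but 0.67 and 0.57 at the same FPKM sum).

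Factors that assemble ribosomes in the nucleolus also included lower transcripts, beside 11.3% of all tested genes called lower in MUT and 11.4% in GcKO. For the large subunit, 5 of 22 were lower and 1 higher in MUT and 7 lower in GcKO (medians -0.43 and -0.64, but 0.40 and 0.23 at the same FPKM sum). Brix1, a factor of 60S maturation, had 719, 667 and 764 FPKM in WT, 236, 200 and 225 in MUT, 153, 208 and 262 in GcKO and 421, 642 and 373 in AmcKO. All MUT and GcKO libraries were below AmcKO, which lay below WT. Its changes were -1.70 and -1.81 (adjusted p = 0.000176 and 0.000146), and it was called lower at the same FPKM sum too (-0.70 and -0.78). Rsl1d1 changed by -0.997 and -1.13, and Rsl24d1 by -0.85 in MUT (adjusted p = 0.00542). For the small subunit, 3 of 27 (11.1%) were lower in MUT, which is near the share of all genes. Among them were Krr1 (-1.23) and Imp3 (-0.71). The list's median was 0.21 as deposited and 0.88 at the same FPKM sum. Of 12 subunits and factors of RNA polymerase I, which transcribes ribosomal RNA, 4 were lower in MUT and 3 in GcKO (Polr1d at -0.79 and -0.95), with medians of -0.22 and -0.05 that became 0.61 in both at the same FPKM sum. Dkc1, of 4 tested proteins that guide pseudouridylation of rRNA, was lower in MUT (-0.93, adjusted p = 0.00510) and not called in GcKO (-0.26, adjusted p = 0.380), and the difference between these groups did not pass (0.67, adjusted p = 0.351). Scaled to the same sum, Dkc1 was at 0.02 in MUT and 0.74 in GcKO.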

How the data were processed

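FPKM for 24255 genes in 12 libraries were deposited by the authors, who aligned 150-nt paired reads of Smart-seq2 cDNA to mm10 with TopHat2 2.0.13 and quantified them with Cufflinks 2.2.1, as their processing notes list; the annotation is not given in the sources used here, and the sources name different library kits. Those notes also list Cuffnorm and Cuffdiff, without a version. The 18 columns of the authors' own comparisons (fold changes, p and q values) were not used. Genes with at least 1 FPKM in at least 1 library (11233) entered limma 3.58.1 under R 4.3.3 as log2 of FPKM plus 1, in 1 fit of all 12 libraries (8 residual degrees of freedom) whose variance followed the mean level, with calls made under 0.05 after Benjamini-Hochberg adjustment across all genes. A fold change on this scale understates that of low genes. The study's own test needs reads, which were not analysed here. The members and lists were chosen with earlier results of these data known, and no p was adjusted over a list. Some genes are not reported here by name and enter only the counts, medians and sums. Named members were the P-stalk, paralogue pairs, Rpl19 and proteins with a known separate role, the 5 largest falls and rises called in each comparison, the 5 highest and 5 lowest by mean, and members at 0 in some or all libraries; Rpl14, Rps24, Rps9, Rps20, Rpl17, Rpl6, the start windows shown, the copies and the genes of the other lists were picked after their values were seen. Copies were found with blastn 2.17.0 in GENCODE M21 transcripts. On simulated data with 200 of 11233 genes changed between MUT and WT, the fit recovered 91.7% of 4-fold and 57.7% of 2-fold changes. It also called 13 genes that had no change. The real comparison called 1269 genes lower and 1063 higher, a setting that the simulation did not cover.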

Additional observations from a re-analysis of the deposited data

Results flagged for a closer look

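Against AmcKO, where the oocyte keeps Dpagt1, 9 changes of ribosomal protein transcripts named here passed a direct limma test of MUT or GcKO, which is the difference between their changes and that of AmcKO from the same WT libraries. Of the 75 tested members, 6.67% were lower and 1.33% higher in MUT, and 9.33% lower and 0% higher in GcKO. Of all tested genes these shares were 5.07% and 1.42%, and 4.79% and 0.668%. In MUT the log2 fold changes were -1.23 for Rpl5 (adjusted p = 0.00514), -0.91 for Rps4x (0.0441), -0.90 for Rpl35 (0.00302) and -0.85 for Rps13 (0.0427), and 0.71 for Rplp1 (0.0106). In GcKO they were -0.98 for Rpl5 (adjusted p = 0.0182), -0.87 for Rps14 (0.0451), -0.73 for Rpl35 (0.0120) and -0.57 for Rpl14 (0.0467). Rpl35 in both groups and Rpl5 in MUT were called whichever single library was left out, and Rplp1 unless it was MUT 2 (adjusted p = 0.0563). Rps4x and Rps14 were lost without any 1 library (adjusted p up to 0.203 and 0.161), and Rps13 without any MUT library, AmcKO 4 or AmcKO 5 (up to 0.179). Rpl5 and Rpl14 in GcKO were lost without GcKO 1, GcKO 2, AmcKO 4 or AmcKO 5 (up to 0.0954 and 0.127). With only the 2 groups in the fit, Rpl5, Rpl35 and Rplp1 were called in MUT and none in GcKO. At the same FPKM sum, 2 of the 6 members called in MUT against AmcKO kept their call, and 0 of the 7 in GcKO. There Rpl35 in MUT was at -0.20 (adjusted p = 0.238), and with quantile normalization it was at -0.31 (adjusted p = 0.177). MUT and GcKO differ from AmcKO also in the numbers the labels give their libraries, 1 to 3 against 4 to 6, and the summed FPKM of all genes was lower in them, and the part of either in these differences was not tested.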

How the results depend on the processing

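Median-of-ratios scaling, another pseudocount (0.1) and no filter kept the counts of lower members in MUT and GcKO within 1.5 times those reported. The first of these hardly moved the deposited values, so it is no separate support. With quantile normalization the counts were 8 lower and 9 higher in MUT, 10 and 6 in GcKO, 2 and 6 in MUT against AmcKO and 1 and 4 in GcKO against AmcKO. All 11233 genes had 720 and 753, 665 and 691, 316 and 210, and 161 and 89 in that order. With all libraries at the same sum the members' counts were 1 and 28, 2 and 28, 3 and 23 and 1 and 23 in the same order, with 1 higher in AmcKO. All genes then had 250 and 4646, 240 and 4771, 165 and 2396, and 128 and 2473. The same sum with copies added as well, chosen after seeing the data, gave 1 and 29 members in MUT and 2 and 29 in GcKO. The shares of all genes were 2.23% and 41.4% in MUT and 2.13% and 42.5% in GcKO. Correction for transcript length gave 13 and 7 in MUT, 4 higher in GcKO, 1 higher in AmcKO and 3 lower and 1 higher in GcKO against AmcKO. Of all 11123 genes then tested, 1140 were lower and 983 higher in MUT, and 837 higher in GcKO. In AmcKO 15 were higher, and in GcKO against AmcKO 507 were lower and 73 higher. With only the 2 groups compared in the fit, GcKO had 14 lower and 0 higher, MUT against AmcKO 2 lower and GcKO against AmcKO 0. Of all 11233 genes, 838 were lower and 410 higher in GcKO, 438 lower in MUT against AmcKO and 0 in GcKO against AmcKO. Without the variance trend no member was higher in GcKO (0) or in MUT against AmcKO (0), where 3 were lower, and 1 was lower in GcKO against AmcKO. Of all genes, 1021 were then higher in GcKO, 97 higher and 289 lower in MUT against AmcKO, and 172 lower in GcKO against AmcKO. Asking for more than 2-fold left 11 and 1 in MUT, 13 and 0 in GcKO, 1 and 0 in MUT against AmcKO and 1 lower in GcKO against AmcKO. The counts over all genes at that cut are not given. With no filter, 3 were lower against AmcKO in either group, and with a mean of at least 5 FPKM, 8 and 2 in MUT, 12 lower in GcKO and 1 lower in AmcKO against WT. Of all 14933 genes without a filter, 482 were lower in MUT and 450 in GcKO against AmcKO. Of the 4759 genes with that mean, 756 were lower and 217 higher in MUT against AmcKO. In GcKO against AmcKO 747 were lower, and in AmcKO against WT 36. A pseudocount of 0.1 also gave 1 lower in AmcKO, with 17 lower among all 11233 genes.

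Summed FPKM of the members in WT, MUT and GcKO became 13186, 17893 and 17246 with quantile normalization and 13563, 18833 and 18249 at the same sum, so that the order turned. Without the paralogues the sums were 13763, 9920, 9673 and 10960 in WT, MUT, GcKO and AmcKO, and with the copies added, an alternative chosen after seeing the data, 31884, 19164, 18595 and 24350.

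Signs of named members called as deposited turned as follows. At the same FPKM sum the values in MUT were 0.11 for Rpl19, 0.090 for Rpl7, 0.33 for Rpl36al, 0.0089 for Rps27a, 0.29 for Rps20, 0.21 for Rps9 and 0.27 for Rpl14 and Rpl6. In GcKO they were 0.25 for Rpl19, 0.47 for Rpl22l1, 0.13 for Rpl36al, 0.39 for Rpl39l, 0.19 for Rps6, 0.046 for Rpl17, 0.020 for Rpl6, 0.24 for Rps20, 0.40 for Rps9 and 0.18 for Rpl14, and against AmcKO 0.013 for Rpl35 and 0.17 for Rpl14. With quantile normalization they were 0.55 (Rpl36al), 0.056 (Rps20) and 0.17 (Rpl14) in MUT, 0.047 (Rpl22l1), 0.34 (Rpl36al), 0.27 (Rpl39l), 0.047 (Rps20), 0.24 (Rps9) and 0.070 (Rpl14) in GcKO, and 0.062 for Rpl14 in GcKO against AmcKO.

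With each library left out in turn, lower members numbered 11 to 19 in MUT, 14 to 25 in GcKO, 0 to 2 in AmcKO, 0 to 1 in GcKO against MUT, 2 to 6 in MUT against AmcKO and 2 to 8 in GcKO against AmcKO. Higher members numbered 1 to 2, 0 to 2, 0 to 1, 0, 0 to 2 and 0 to 1. Of all 11233 genes, 926 to 1101, 941 to 1324, 6 to 48, 6 to 14, 248 to 516 and 229 to 654 were lower in that order. The higher genes numbered 523 to 840, 409 to 949, 7 to 36, 2 to 11, 48 to 141 and 23 to 98. The cause of these shifts was not tested.

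Numbers are shared by WT and AmcKO and by MUT and GcKO. With the number as a block, 0 members were called in AmcKO against WT or GcKO against MUT, as without it, and correlations of deviations between libraries lay between -0.057 and 0.0706, so the numbers give no sign of pairing. No paired fit was possible for MUT or GcKO against WT, which share no number. With FPKM alone, a change near the level of 1 fragment cannot be told from sampling.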
